A study of Homo sapiens with 18 samples.

Results

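The uninduced cells of T47D were compared with those of MDA-MB-231, using 3 control libraries of each line, 6 of the 18 libraries in the series. T47D is an estrogen receptor positive human breast cancer line and MDA-MB-231 an estrogen receptor negative one. Both carry an introduced G0S2 gene under doxycycline control, and the control cells carry it too, without doxycycline. These groups follow the sample labels; the series' design text instead names parental and "Aza resistant" lines, and which description holds for the control cells could not be settled from the files. The other 12 libraries, from cells given doxycycline at 0.5 ug/ml for 3 or 15 days, enter here only as a repeat of the comparison. The labels do not say whether a line is 1 clone or whether its 3 libraries came from separate cultures, so the errors given here measure the spread between libraries and may be partly technical. Line, table and any difference in culture or library preparation cannot be told apart.

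Breast cancers of the luminal kind keep the program of the hormone-sensing cells that line the ducts. In it the estrogen receptor, FOXA1 and GATA3 act together on luminal genes, and cells hold to each other through E-cadherin and tight junctions. Cells that have passed to a mesenchymal state carry the repressors ZEB1, ZEB2 and SNAI2, which act on E-cadherin and other junction genes, and have vimentin filaments and a matrix-degrading, migratory equipment. MDA-MB-231 is known as a line of this mesenchymal kind, with active mutations in the RAS pathway, and T47D as a line of the luminal kind.

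The T47D control libraries held 44.7, 51.0 and 40.1 M reads and the MDA-MB-231 control libraries 42.9, 45.6 and 52.4 M reads. Of the 16410 genes in either table, 12666 stood in both, 2102 in the T47D table alone (12.8%) and 1642 in the MDA-MB-231 table alone (10%). The rule by which a table leaves out genes is not given in the sources used here; for a gene in a single table, the level in that line is given and no fold. The lowest 1% of listed genes had control means under 0.358 CPM (reads per M reads) in T47D and under 0.375 CPM in MDA-MB-231. CPM values below come from whole reads. A log2 difference is T47D minus MDA-MB-231, taken on the deposited log2 CPM, which include about 3 added reads a library, so that differences of genes with few reads are understated. Its standard error (SE) comes from the spread of the 3 libraries in each line.

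The tables were scaled separately, so no test was made between them and only differences of at least 4-fold (2 on the log2 scale) without overlap between the lines were called. Of the 12666 genes in both tables, 930 (7.34%) were called higher in T47D and 906 (7.15%) higher in MDA-MB-231, 14.5% in all. These shares, and the 12.8% and 10% of genes in a single table, are to be read beside every list count below. Smaller differences were common: the libraries of the lines did not overlap in 90.1% of genes, and 7998 genes (63.1%) lay within 2-fold. The median difference over all genes was 0.12 on the log2 scale, a shift that is to be read beside every list median below. Within a line the median SD of a gene was 0.0533 in T47D and 0.0522 in MDA-MB-231 on the log2 scale. At the edge of the rule, the smallest called differences were 2.001 and -2.001 and the largest uncalled ones 1.999 and -1.998. Pearson's r between libraries over these genes, which are not independent replicates, was 0.997 to 0.998 within a line and 0.792 to 0.796 between lines.

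**Figure D1:**
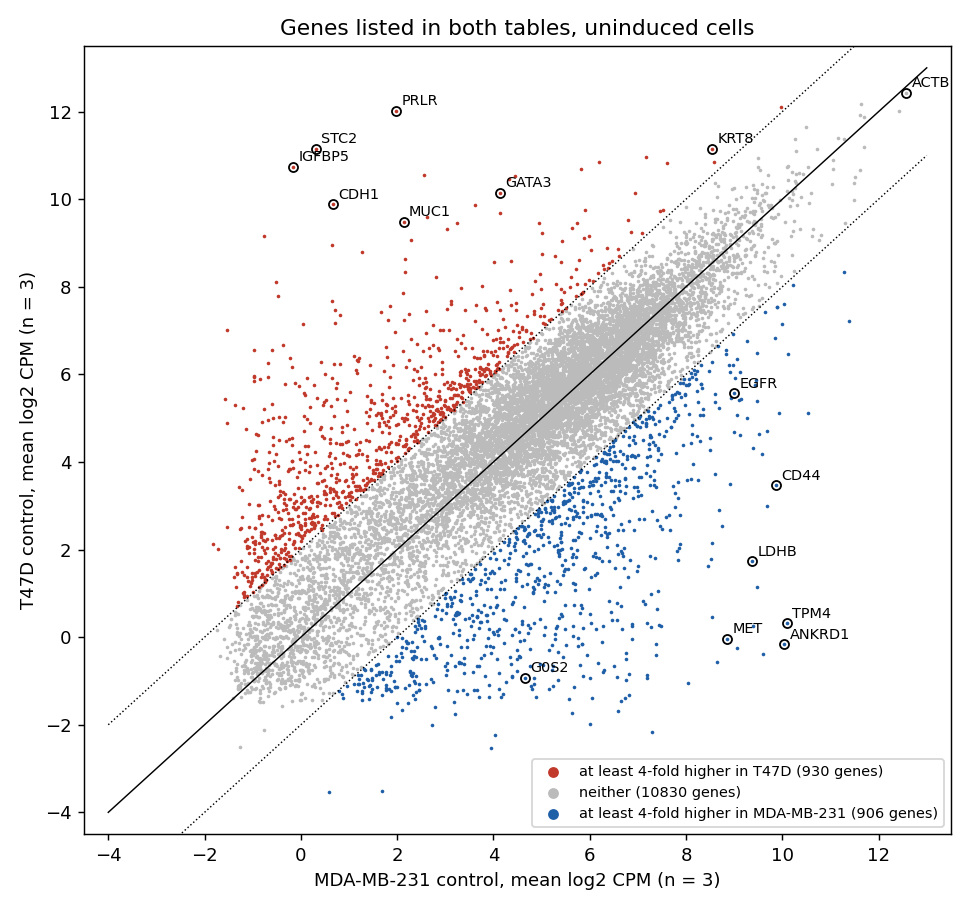
Mean log2 CPM in T47D control cells (vertical axis) against MDA-MB-231 control cells (horizontal axis), n = 3 libraries each, for 12666 genes in both tables. Red points are the 930 genes at least 4-fold higher in T47D, blue points the 906 genes at least 4-fold higher in MDA-MB-231, grey points the rest, the solid line marks equality and dotted lines 4-fold; STC2 and PRLR stand far above the diagonal, ANKRD1, MET and TPM4 far below it, and ACTB lies near it.

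The estrogen receptor and its partners separated the lines in the direction of their known receptor status. ESR1, which encodes estrogen receptor alpha, had 279, 279.6 and 273 CPM in T47D and was not listed in MDA-MB-231. Its target PGR, the progesterone receptor gene, had 838, 819 and 804 CPM in T47D, and FOXA1, the pioneer factor that opens chromatin for the receptor, had 381, 382 and 372 CPM in T47D; neither was listed in MDA-MB-231. GATA3, a luminal master regulator, had 1129, 1143 and 1139 CPM in T47D, against 18.9, 16.2 and 17.8 CPM in MDA-MB-231 (log2 difference 6.01, SE 0.0651). Its level in MDA-MB-231 was low but measurable in every library.

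Of 23 receptor and target genes in both tables, 15 were at least 4-fold higher in T47D, against a background of 7.34%, 1 was higher in MDA-MB-231 and 7 were neither, with a list median of 2.69. A further 10 were in the T47D table alone. IGFBP5, which encodes a binding protein for insulin-like growth factors, showed the largest difference towards T47D among genes of at least 10 CPM, with 1675, 1728 and 1748 CPM in T47D, against 1.05, 0.811 and 0.669 CPM in MDA-MB-231 (log2 difference 10.90, SE 0.174). STC2, a secreted glycoprotein gene, had 2232, 2283 and 2334 CPM in T47D, against 1.19, 1.34 and 1.01 CPM in MDA-MB-231 (log2 difference 10.84, SE 0.111), and GREB1, a cofactor of the receptor, had 487, 496 and 504 CPM in T47D, against 1.51, 1.53 and 1.43 CPM in MDA-MB-231 (log2 difference 8.31, SE 0.032). In each of these genes the lines lay far apart while libraries of a line lay close together. The anterior gradient gene AGR2 (7.99), the tau gene MAPT (6.47), the carbonic anhydrase gene CA12 (6.14) and the secretory regulator XBP1 (4.65) were also called higher in T47D. CXCL12, a chemokine gene, had 874, 854 and 845 CPM in T47D without an entry in MDA-MB-231. TFF1, a textbook target, was listed in T47D alone at a low level, with 3.82, 4.08 and 3.71 CPM in T47D. Other targets stood on the MDA-MB-231 side: CCND1 (cyclin D1) stood lower in T47D without reaching 4-fold (-1.38), and the survival gene BCL2 had 0.585, 0.336 and 0.551 CPM in T47D, against 19.6, 21.7 and 21.1 CPM in MDA-MB-231 (log2 difference -5.26, SE 0.224). BCL2 was the list's single call in the opposite direction.

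The transcription factors of the luminal lineage followed the same order. Of 11 list genes in both tables, 8 were called higher in T47D and none in MDA-MB-231 (list median 3.95), and 5 more were listed for T47D alone. PRLR, the prolactin receptor gene that the list holds as a lineage marker, had 4278, 4153 and 4058 CPM in T47D, against 4.07, 3.44 and 4.19 CPM in MDA-MB-231 (log2 difference 10.04, SE 0.0896). No MDA-MB-231 library passed 5 CPM. TRPS1, a GATA-type repressor of luminal cells, had 1511, 1477 and 1453 CPM in T47D, against 21.6, 21.4 and 22.6 CPM in MDA-MB-231 (log2 difference 6.08, SE 0.0282). TFAP2A (3.95), TFAP2C (4.05) and the prostate and breast factor SPDEF (2.68) were called too. ELF5, a factor of milk-secreting alveolar cells, had 283, 289 and 276 CPM in T47D and was not listed in MDA-MB-231. RUNX1 (0.32) and NR2F2 (-0.46) were within 2-fold.

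**Figure D2:**
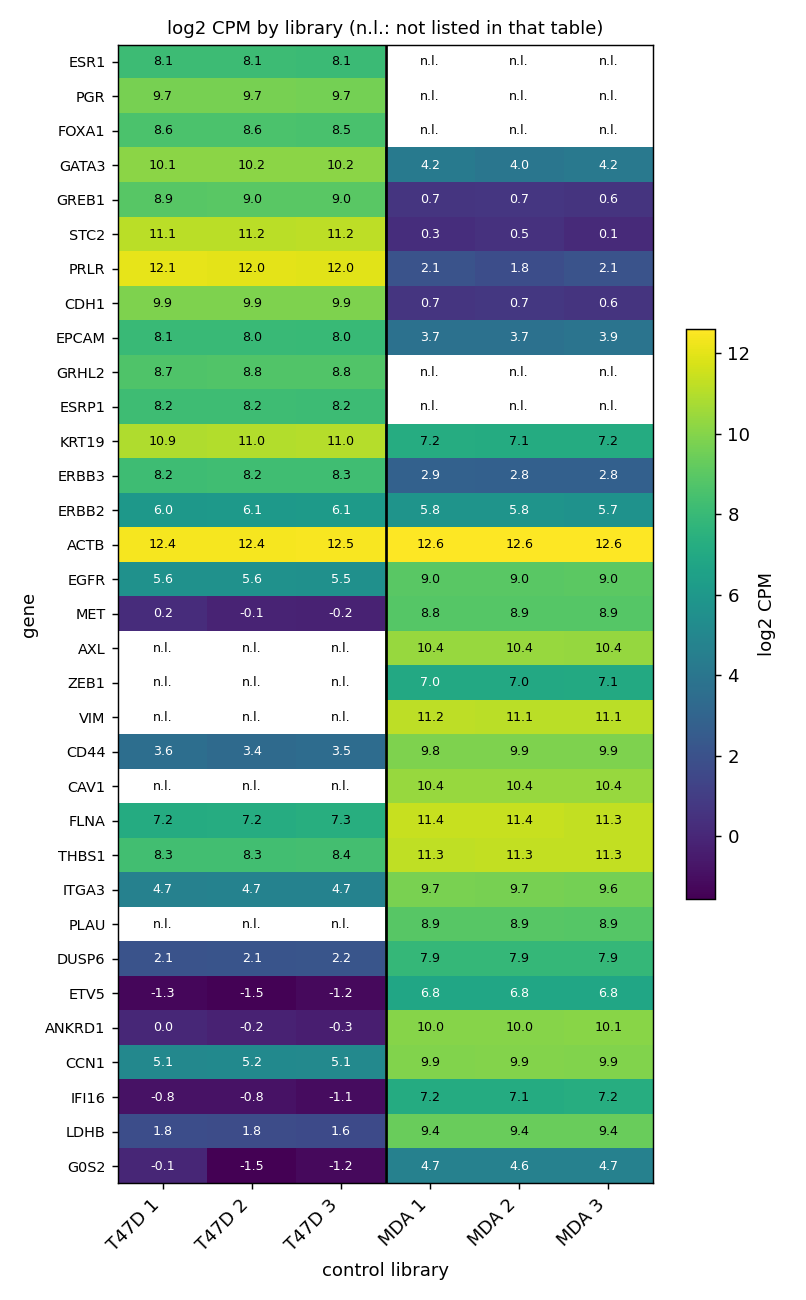
Deposited log2 CPM of 33 genes (rows) in the 3 T47D control libraries (left) and the 3 MDA-MB-231 control libraries (right); n.l. marks a gene that the table of that line does not list. Luminal genes from ESR1 to ERBB3 are high on the left and lower or unlisted on the right, ERBB2 and ACTB are alike in all 6 libraries, and the rows from EGFR to G0S2 are higher on the right or listed there alone.

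Keratins were called in both directions. KRT19 had 1956, 1999 and 2057 CPM in T47D, against 146, 142 and 143 CPM in MDA-MB-231 (log2 difference 3.80, SE 0.0248), and KRT8 had 2229.8, 2277 and 2344 CPM in T47D, against 386, 382 and 358 CPM in MDA-MB-231 (log2 difference 2.61, SE 0.04). KRT18, the partner of KRT8 in the filament, differed less (1.77) and was not called. The order was turned for KRT7, with 39.7, 41 and 42.5 CPM in T47D, against 319, 315 and 281 CPM in MDA-MB-231 (log2 difference -2.89, SE 0.0643), and KRT81, a hair-type keratin, was listed in MDA-MB-231 alone at a mean of 199.9 CPM. KRT23 was listed in T47D alone at a mean of 109.6 CPM. KRT15, a keratin of basal cells, was low but called higher in T47D, with 16.5, 17.8 and 18.2 CPM in T47D, against 1.51, 1.36 and 1.45 CPM in MDA-MB-231 (log2 difference 3.54, SE 0.0603). Among other keratin genes of basal or stratified epithelia, KRT5, KRT6A, KRT6B, KRT14, KRT16 and KRT17 had no entry in either table. In all 3 of 8 keratins in both tables were called higher in T47D and 1 higher in MDA-MB-231.

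Cell junction genes were the largest epithelial group on the T47D side. Of 32 genes in both tables, 16 were called higher in T47D and none in MDA-MB-231 (list median 2.08), and 7 more were in the T47D table alone. CDH1, which encodes E-cadherin, had 946, 946 and 947 CPM in T47D, against 1.51, 1.60 and 1.45 CPM in MDA-MB-231 (log2 difference 9.22, SE 0.0386). ST14, a membrane protease of epithelia, had 427, 438 and 459 CPM in T47D, against 3.17, 1.84 and 2.18 CPM in MDA-MB-231 (log2 difference 7.52, SE 0.226), and SPINT1, which encodes its inhibitor, had 383, 389 and 414 CPM in T47D, against 4.98, 4.28 and 4.05 CPM in MDA-MB-231 (log2 difference 6.46, SE 0.0942). The protease and its inhibitor thus stood on the same side. Among tight junction genes CLDN3 had 55.6, 53.5 and 57 CPM in T47D, against 1.00, 0.767 and 0.803 CPM in MDA-MB-231 (log2 difference 5.91, SE 0.113) and cingulin, CGN, had 148, 151 and 154 CPM in T47D, against 3.40, 3.92 and 3.08 CPM in MDA-MB-231 (log2 difference 5.43, SE 0.101). EPCAM, the epithelial adhesion molecule gene, was measurable in both lines, with 266, 262 and 253 CPM in T47D, against 13.1, 13 and 14.6 CPM in MDA-MB-231 (log2 difference 4.25, SE 0.0571). The split was not uniform. The catenin genes CTNNB1 (-0.17) and CTNNA1 (-0.85), the desmosomal cadherin DSG2 (-0.45) and the junction scaffold TJP1 (-0.74) were within 2-fold, and PKP2 (-1.52) lay on the MDA-MB-231 side without being called.

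Regulators that keep the epithelial state were mostly on the T47D side, with exceptions. GRHL2, which drives junction genes, had 424, 437 and 438 CPM in T47D, and ESRP1, the epithelial splicing regulator, had 294, 292 and 284 CPM in T47D; both were unlisted in MDA-MB-231. ESRP2 (4.54), GRHL1 (4.65) and ELF3 (2.91) were called higher in T47D. KLF5, a factor of proliferating epithelium, was the exception among calls, with 4.72, 4.57 and 4.88 CPM in T47D, against 63.3, 62.2 and 66.6 CPM in MDA-MB-231 (log2 difference -3.74, SE 0.0402), and EHF, an epithelial ETS factor, was within 2-fold (0.45).

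Mesenchymal regulators were found in the MDA-MB-231 table alone for the most part. ZEB1 had 125, 129 and 134 CPM in MDA-MB-231, ZEB2 had 16.3, 17.5 and 17.9 CPM in MDA-MB-231 and SNAI2 (Slug) had 38.8, 38.9 and 41 CPM in MDA-MB-231. FOSL1, the AP-1 subunit FRA1 that is tied to invasive breast cancer cells, had 223, 221 and 224 CPM in MDA-MB-231. None of these was listed in T47D. TWIST1, by contrast, was listed in T47D alone, with 4.95, 4.43 and 4.21 CPM in T47D, and SNAI1 was under 1 CPM in both lines (log2 difference -0.47). TCF4 was called higher in T47D, with 4.32, 4.77 and 4.46 CPM in T47D, against 0.768, 0.767 and 0.975 CPM in MDA-MB-231 (log2 difference 2.35, SE 0.114). In all 6 of 11 regulators were in the MDA-MB-231 table alone, 1 in the T47D table alone, and of the 4 in both, 1 was called.

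Several mesenchymal structural genes were high in MDA-MB-231 and had no entry in T47D. VIM, which encodes the intermediate filament vimentin, had 2302, 2248 and 2256 CPM in MDA-MB-231. CAV1, the coat protein of caveolae, had 1352, 1352 and 1361 CPM in MDA-MB-231, and MSN (moesin), which links actin to the membrane, had 1018, 1026 and 1022 CPM in MDA-MB-231. None of the 3 was listed in T47D. Of 15 list genes in both tables, 7 were called higher in MDA-MB-231, against 7.15% of all genes, and none in T47D (list median -1.68). Another 10 were listed in MDA-MB-231 alone and 1 in T47D alone. ANXA1, an annexin, had 1.91, 2.16 and 2.38 CPM in T47D, against 709, 702 and 716 CPM in MDA-MB-231 (log2 difference -8.33, SE 0.0889). CD44, the hyaluronan receptor, had 11.8, 10.1 and 11.1 CPM in T47D, against 921, 934 and 946 CPM in MDA-MB-231 (log2 difference -6.40, SE 0.064), whereas CD24, the surface glycoprotein used with it to sort breast cancer cells, had 946, 926 and 911 CPM in T47D, against 12.2, 11.7 and 12.9 CPM in MDA-MB-231 (log2 difference 6.23, SE 0.0438). These markers stood in opposite order in the lines. The actin crosslinker FLNA had 143, 146 and 158 CPM in T47D, against 2746, 2707 and 2553 CPM in MDA-MB-231 (log2 difference -4.16, SE 0.0549). Not every mesenchymal gene followed: N-cadherin, CDH2, was near 1 CPM in both lines (0.40), TPM1 was higher in T47D without being called (1.09), and myoferlin, MYOF, was within 2-fold (-0.30). TPM4, a tropomyosin outside the list, had 1.30, 1.01 and 1.25 CPM in T47D, against 1079, 1079.8 and 1113 CPM in MDA-MB-231 (log2 difference -9.77, SE 0.11).

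The matrix and its receptors differed in the same direction. Of 16 collagen, laminin and matrix genes in both tables, 7 were called higher in MDA-MB-231 and 1 in T47D, and 12 were in the MDA-MB-231 table alone. THBS1, the adhesive glycoprotein thrombospondin 1, had 322, 321 and 329 CPM in T47D, against 2447, 2487 and 2491 CPM in MDA-MB-231 (log2 difference -2.93, SE 0.0138). LAMB3, a laminin chain of basement membranes, had 4.54, 3.36 and 3.81 CPM in T47D, against 231, 228 and 216 CPM in MDA-MB-231 (log2 difference -5.84, SE 0.127), and TNC, tenascin C, had 0.967, 1.54 and 0.977 CPM in T47D, against 75.2, 81.1 and 76.1 CPM in MDA-MB-231 (log2 difference -6.01, SE 0.213). COL5A2 was the call on the other side (2.33), and fibrillar COL3A1 was listed in T47D alone at a mean of 18.2 CPM. Among integrins, 6 of 12 were called higher in MDA-MB-231 and none in T47D. ITGA3, the laminin-binding alpha 3 chain, had 25.4, 26 and 26.6 CPM in T47D, against 849, 829 and 793 CPM in MDA-MB-231 (log2 difference -4.98, SE 0.034), and the common beta 1 chain ITGB1 had 269, 269.8 and 248 CPM in T47D, against 1153, 1187 and 1230.2 CPM in MDA-MB-231 (log2 difference -2.18, SE 0.0471). The alpha V, beta 4 and beta 5 chains were within 2-fold (ITGAV -0.09, ITGB4 -0.30, ITGB5 -0.61), and ITGB6, a chain of epithelial cells, was listed in T47D alone at a mean of 3.40 CPM.

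Calls among proteases that act on the matrix, and among their inhibitors, were mostly towards MDA-MB-231. PLAU, the urokinase gene, had 488, 489 and 467 CPM in MDA-MB-231 and was not listed in T47D. MMP14, the membrane-bound collagenase, had 394, 388 and 384 CPM in MDA-MB-231, and TIMP3, an inhibitor of such enzymes, had 646, 646 and 645 CPM in MDA-MB-231. The urokinase receptor gene PLAUR had 0.922, 0.771 and 1.03 CPM in T47D, against 39.9, 37.9 and 39.1 CPM in MDA-MB-231 (log2 difference -5.33, SE 0.114), and TIMP1 had 1.60, 1.33 and 1.38 CPM in T47D, against 91.2, 89.1 and 80.8 CPM in MDA-MB-231 (log2 difference -5.86, SE 0.0951). Of 17 list genes in both tables, 8 were called higher in MDA-MB-231 and 1 in T47D, the lysosomal protease CTSV (2.19), and 8 were called in neither direction (list median -0.95). Cathepsin D, CTSD, an abundant estrogen-responsive protease, was within 2-fold, with 2109.6, 2118 and 2316 CPM in T47D, against 1314, 1258 and 1184 CPM in MDA-MB-231 (log2 difference 0.80, SE 0.0619), and MMP2, MMP3, MMP7, MMP9, MMP10 and MMP13 were in neither table.

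The receptor tyrosine kinases did not favour a line as a list (median 0.20) but divided by member. Of 18 in both tables, 5 were called higher in T47D and 5 in MDA-MB-231. ERBB3, the neuregulin receptor, had 294, 303 and 306 CPM in T47D, against 7.17, 6.82 and 6.75 CPM in MDA-MB-231 (log2 difference 5.43, SE 0.0321), and ERBB4 was listed in T47D alone, with 85.2, 85.1 and 84.7 CPM in T47D. EGFR, the epidermal growth factor receptor gene, had 48, 48.2 and 46.3 CPM in T47D, against 504, 509.7 and 519 CPM in MDA-MB-231 (log2 difference -3.42, SE 0.0219). ERBB2, which encodes HER2, was close in the lines, with 64, 68 and 70.2 CPM in T47D, against 55.2, 55 and 51.2 CPM in MDA-MB-231 (log2 difference 0.32, SE 0.0524). Within the ERBB family the order thus ran opposite for EGFR and for ERBB3 and ERBB4. MET, the hepatocyte growth factor receptor gene, had 1.10, 0.851 and 0.802 CPM in T47D, against 459, 464 and 469.6 CPM in MDA-MB-231 (log2 difference -8.89, SE 0.132), EPHA2 had 1.24, 1.27 and 1.45 CPM in T47D, against 383, 373 and 364 CPM in MDA-MB-231 (log2 difference -8.08, SE 0.0722), and AXL was listed in MDA-MB-231 alone, with 1371, 1358 and 1328 CPM in MDA-MB-231. On the T47D side DDR1, a collagen receptor, had 403, 406 and 433 CPM in T47D, against 40.7, 39.3 and 36 CPM in MDA-MB-231 (log2 difference 3.42, SE 0.0628), and FGFR2 was listed alone, with 119, 122 and 122 CPM in T47D, while FGFR1 was called higher in MDA-MB-231 (-2.71).

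Ligands for these and other receptors were more often higher in MDA-MB-231, with 8 of 19 called there, 2 called in T47D, 3 listed in T47D alone and 7 listed in MDA-MB-231 alone. JAG1, a Notch ligand, had 1.78, 1.62 and 1.48 CPM in T47D, against 143, 139.6 and 140.2 CPM in MDA-MB-231 (log2 difference -6.38, SE 0.0745), and TGFB2 had 3.42, 3.26 and 3.28 CPM in T47D, against 220.3, 227 and 237 CPM in MDA-MB-231 (log2 difference -6.07, SE 0.0368). The HB-EGF gene HBEGF (-4.51), VEGFC (-4.69), TGFB1 (-5.94) and BMP4 (-2.52) were called the same way, and NRG1, the ligand of ERBB3 and ERBB4, was listed in MDA-MB-231 alone, with 69.3, 69.9 and 72.9 CPM in MDA-MB-231. TGFB3 was the TGF-beta gene on the other side, with 109.7, 111 and 115 CPM in T47D, against 4.86, 4.67 and 4.90 CPM in MDA-MB-231 (log2 difference 4.52, SE 0.0277), and PDGFB was called with it (5.35). NOTCH3, a receptor for JAG1, had 91.2, 94.3 and 96.3 CPM in T47D, against 0.419, 0.438 and 0.459 CPM in MDA-MB-231 (log2 difference 7.53, SE 0.0403).

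Genes that the RAS and ERK cascade switches on, some of which restrain it and some of which are early response factors, were called towards MDA-MB-231 alone. Of 21 list genes in both tables, 13 were called higher there and none in T47D (list median -2.61), 8 were called in neither direction, and 3 were listed in MDA-MB-231 alone. FOSL1, listed alone, is counted among the mesenchymal regulators too. DUSP6, the ERK phosphatase, had 4.21, 4.27 and 4.46 CPM in T47D, against 233, 235 and 235 CPM in MDA-MB-231 (log2 difference -5.74, SE 0.0252). SPRY4, a Sprouty inhibitor of receptor signalling, had 1.35, 1.38 and 1.03 CPM in T47D, against 92.5, 96.5 and 94.6 CPM in MDA-MB-231 (log2 difference -6.17, SE 0.132), and the ETS factor ETV5 had 0.337, 0.297 and 0.376 CPM in T47D, against 112, 113 and 114 CPM in MDA-MB-231 (log2 difference -8.14, SE 0.0825). In T47D all 3 lay below 5 CPM in each library. ETV1 (-6.29), SPRY2 (-4.20), SPRY1 (-3.72), DUSP4 (-3.06) and EGR1 (-2.61) were called as well. JUNB (0.24), IER3 (-0.32) and SPRED2 (-0.65) were within 2-fold, and MYC was lower in T47D without being called (-1.35).

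Targets of YAP and TAZ, coactivators that drive TEAD factors when cells spread on a stiff matrix, held the largest difference on the MDA-MB-231 side. ANKRD1 had 0.967, 0.811 and 0.726 CPM in T47D, against 1037, 1043 and 1078 CPM in MDA-MB-231 (log2 difference -10.20, SE 0.113), and F3, the tissue factor gene, had 1.28, 1.21 and 0.902 CPM in T47D, against 673, 661 and 676 CPM in MDA-MB-231 (log2 difference -9.14, SE 0.148). CCN1, a matricellular gene, had 33.3, 36.2 and 35.1 CPM in T47D, against 980.1, 987 and 972 CPM in MDA-MB-231 (log2 difference -4.81, SE 0.0351), and its relative CCN2 was listed in MDA-MB-231 alone, with 255, 258 and 255 CPM in MDA-MB-231. Of 21 list genes in both tables, 8 were called higher in MDA-MB-231 and none in T47D, and 5 were listed in MDA-MB-231 alone. Among those listed alone, AXL and NT5E stand in the mesenchymal list too, and RBMS3 among the mesenchymal regulators. Counts of lists that share members are thus not separate results. YAP1 itself was within 2-fold (-0.27), WWTR1, which encodes TAZ, was lower in T47D without being called (-1.45), and TEAD1 was called (-2.06).

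The proximal promoters of ANKRD1 and CCN2 are shown because ANKRD1 was under 1 CPM and CCN2 unlisted in T47D while both were above 250 CPM in MDA-MB-231, and because they hold the core letters that TEAD factors bind. The sequences come from RefSeq (GRCh38.p14) and run 5′ to 3′ on the gene's strand, from 250 bases before to 50 bases after the gene's start; capitals mark the letters GGAATG or, on the other strand, CATTCC. ANKRD1 lies at chr10:90921038-90921337 and CCN2 at chr6:131951323-131951622, both on the minus strand.
ANKRD1: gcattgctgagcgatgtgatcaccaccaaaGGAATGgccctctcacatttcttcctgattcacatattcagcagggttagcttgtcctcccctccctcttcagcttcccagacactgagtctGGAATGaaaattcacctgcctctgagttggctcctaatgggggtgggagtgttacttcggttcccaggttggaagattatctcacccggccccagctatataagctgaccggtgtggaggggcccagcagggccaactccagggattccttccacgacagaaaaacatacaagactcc
CCN2: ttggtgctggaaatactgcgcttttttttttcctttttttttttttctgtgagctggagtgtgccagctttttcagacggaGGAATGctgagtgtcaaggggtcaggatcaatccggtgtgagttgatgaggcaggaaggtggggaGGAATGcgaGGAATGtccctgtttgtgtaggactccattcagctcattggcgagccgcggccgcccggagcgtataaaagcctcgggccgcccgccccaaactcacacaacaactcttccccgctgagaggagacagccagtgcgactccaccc
The ANKRD1 window held 2 matches, beginning 220 and 128 bases before the start, and the CCN2 window 3, beginning 169, 104 and 95 bases before it. The window of F3, which had the second difference of the list by size, held no match. The letters occurred in 11.2% of the 11964 promoter windows of genes in either table, in 12.1% of the 646 windows of genes called higher in T47D and in 12.7% of the 718 windows of genes called higher in MDA-MB-231. Of the 13 list genes called higher or listed alone in MDA-MB-231, 10 had a window and 4 of these held the letters. A match is a description of the letters and not a site shown to be bound.

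The E-box letters CAGGTG, which ZEB and Snail factors bind, read on the other strand as CACCTG. These were looked up in the same way. They occurred in 27.6% of the 646 windows of genes called higher in T47D, in 15.9% of the 718 windows of genes called higher in MDA-MB-231 and in 18.7% of all 11964, with mean GC contents of 64.7%, 65.3% and 64%. Of the 23 junction genes called higher or listed alone in T47D, 12 had a window and 4 of them held the letters. Of the 10 windows of YAP and TEAD genes called higher or listed alone in MDA-MB-231, 2 held them. The ANKRD1 window was among these, with CACCTG beginning 116 bases before the start, not marked above. Here too a match is not a site shown to be bound, and repression was not tested. The window of CLDN3 (chr7:73770221-73770520, minus strand, GRCh38.p14) is shown as the window with a match among the 2 called junction genes with a RefSeq window and the largest differences, SPINT1 and CLDN3, with the E-box in capitals 36 bases after the start.
CLDN3: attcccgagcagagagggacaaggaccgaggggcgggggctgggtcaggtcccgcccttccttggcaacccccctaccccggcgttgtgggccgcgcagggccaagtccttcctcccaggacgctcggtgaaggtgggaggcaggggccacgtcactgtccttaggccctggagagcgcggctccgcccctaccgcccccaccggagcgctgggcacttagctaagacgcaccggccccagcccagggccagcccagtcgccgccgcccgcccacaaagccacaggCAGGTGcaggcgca
CDH1 itself had no window in the table used.

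**Figure D3:**
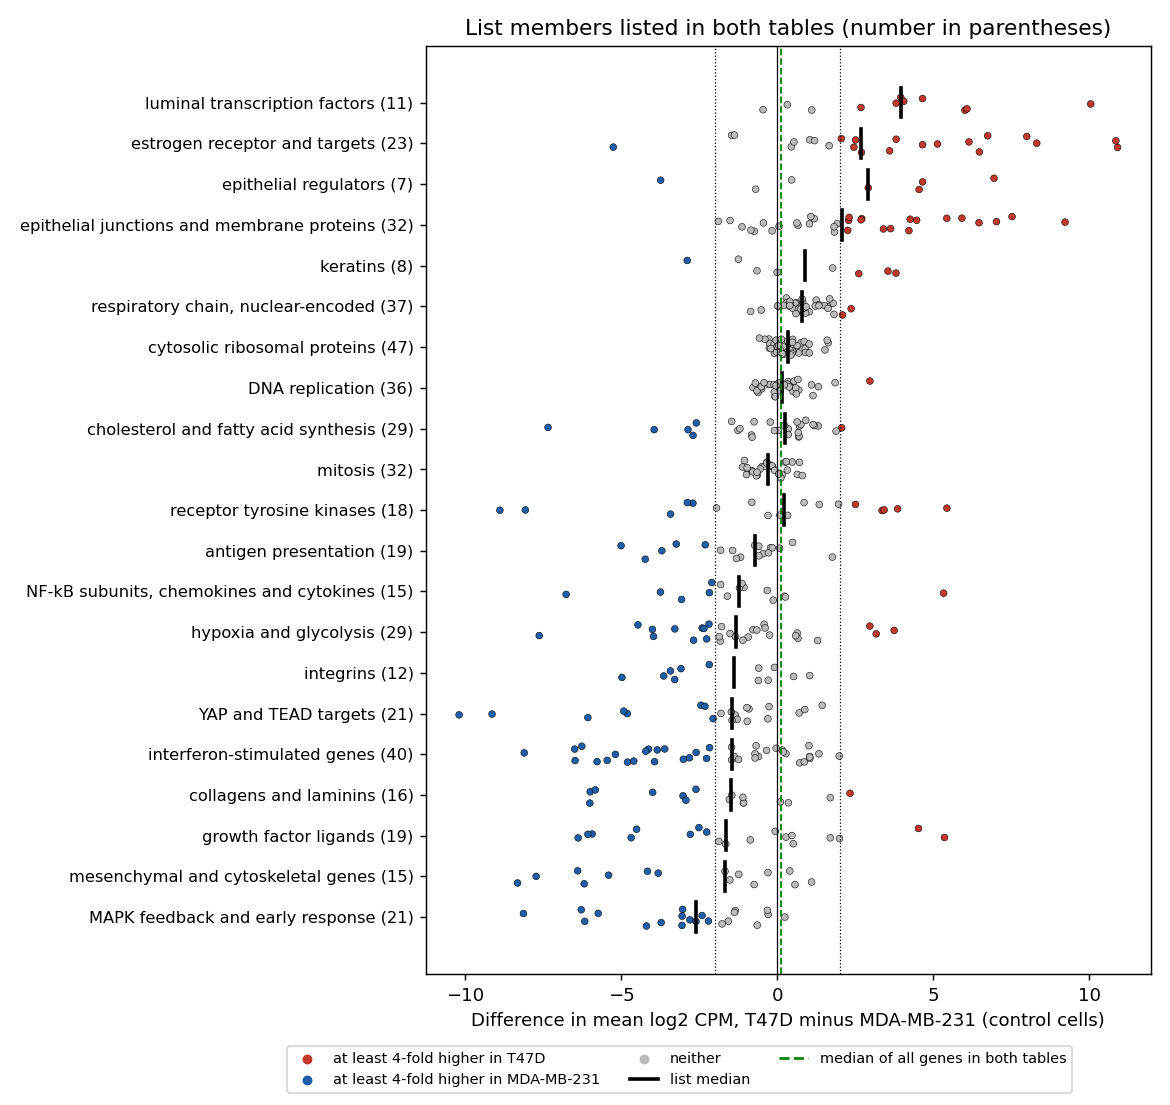
Difference in mean log2 CPM, T47D minus MDA-MB-231 control cells (horizontal axis), for the members of 21 gene lists that both tables hold, 1 point a gene. Red points were at least 4-fold higher in T47D, blue points at least 4-fold higher in MDA-MB-231 and grey points neither; black bars are list medians, dotted lines mark 4-fold and the green dashed line the median of all genes (0.12). Luminal and epithelial lists lie to the right, MAPK feedback, matrix and mesenchymal lists to the left, and the mitosis, ribosomal protein and DNA replication lists close to the centre.

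Called cytokine genes were mostly higher in MDA-MB-231, while several NF-kB subunits were close in the lines. CSF1, the macrophage growth factor gene, had 1.75, 1.36 and 1.38 CPM in T47D, against 172, 173 and 165 CPM in MDA-MB-231 (log2 difference -6.77, SE 0.116), and IL11 and LIF, cytokines of the IL-6 family, were listed in MDA-MB-231 alone, with 99.3, 104 and 99 CPM in MDA-MB-231 and 35, 34.2 and 35.7 CPM in MDA-MB-231. CXCL8 and CCL2 were listed there alone as well, at means of 5.78 and 6.37 CPM. RELA (0.26), REL (0.22), NFKB2 (-0.33) and the inhibitor NFKBIA (-0.14) were within 2-fold. The subunit gene RELB was called higher in MDA-MB-231 (-2.10), with means of 1.80 CPM in T47D and 7.87 CPM in MDA-MB-231. The list gene ICAM1 was called the same way (-3.07). CXCL16 was the call on the T47D side, with 82.4, 87.2 and 88.2 CPM in T47D, against 2.30, 1.86 and 2.08 CPM in MDA-MB-231 (log2 difference 5.32, SE 0.0907). In all 5 of 15 genes in both tables were called higher in MDA-MB-231 and 1 in T47D. Another 11 were listed in MDA-MB-231 alone and 1, the chemokine gene CCL5, in T47D alone.

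Interferon-stimulated genes were present in both tables and many were lower in uninduced T47D. Of 40 genes 19 were called higher in MDA-MB-231 and none in T47D (list median -1.47). IFI16, a sensor of DNA in the nucleus, had 0.495, 0.495 and 0.401 CPM in T47D, against 144, 142 and 152 CPM in MDA-MB-231 (log2 difference -8.11, SE 0.0934), and IFITM3, which blocks virus entry, had 0.990, 1.09 and 1.13 CPM in T47D, against 102, 103 and 102 CPM in MDA-MB-231 (log2 difference -6.50, SE 0.0529). IFIT3 had 1.75, 1.52 and 1.68 CPM in T47D, against 90.6, 92 and 100.03 CPM in MDA-MB-231 (log2 difference -5.78, SE 0.0729). The transcription factor gene STAT2 was within 2-fold (0.19), and MX1 (1.33), OAS3 (0.86) and IFIH1 (1.03) were higher in T47D without being called. The list order was not the same in induced cells: its median was 0.69 between the day 3 libraries of the lines and -0.03 between the day 15 libraries, while the medians of the estrogen receptor list were 2.77 and 2.77. Members of the IFIT, OAS and HLA families share sequence, and their counts may be split between copies.

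In antigen presentation 5 of 19 genes in both tables were called higher in MDA-MB-231, against 7.15% of all genes, and none in T47D. HLA-B (-0.22) and HLA-C (-0.46) were within 2-fold. CD274, which encodes the checkpoint ligand PD-L1, had 1.26, 1.01 and 0.701 CPM in T47D, against 33, 31.9 and 34.4 CPM in MDA-MB-231 (log2 difference -5.01, SE 0.232). The class II transactivator CIITA and HLA-DRA were listed in MDA-MB-231 alone, at means of 8.66 and 12 CPM, and the class II chaperone CD74 was called higher there (-3.70). The HLA reads depend on how well each line's alleles match the reference, which was not tested.

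Genes of hypoxia and glycolysis were more often called towards MDA-MB-231. LDHB, the heart-type subunit of lactate dehydrogenase, had 3.46, 3.34 and 2.98 CPM in T47D, against 664, 655 and 659 CPM in MDA-MB-231 (log2 difference -7.63, SE 0.0643), and LDHA, the muscle-type subunit, was lower in T47D too, without being called (-1.86). SLC2A1, the glucose transporter GLUT1, had 33.4, 33.2 and 34.8 CPM in T47D, against 544, 533 and 513 CPM in MDA-MB-231 (log2 difference -3.97, SE 0.0325), and the lactate exporter SLC16A3 had 9.02, 9.42 and 10.8 CPM in T47D, against 231, 216 and 204 CPM in MDA-MB-231 (log2 difference -4.47, SE 0.0957). PFKFB3, which makes an activator of glycolysis, stood on the other side, with 559.6, 569 and 579.5 CPM in T47D, against 64.7, 63.1 and 62.4 CPM in MDA-MB-231 (log2 difference 3.17, SE 0.0208). Of 29 hypoxia and glycolysis genes in both tables, 10 were called higher in MDA-MB-231 and 3 in T47D (list median -1.34). Nuclear-encoded respiratory chain genes leaned the other way by smaller amounts. Among them 35 of 37 had a positive difference, with a median of 0.79, against 6937 of 12666 over all genes. Only 2 were called, NDUFB9 (2.36) and UQCRC2 (2.09), a share of 5.41% against 7.34% of all genes.

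Calls among lipid genes went both ways. Most of the cholesterol and fatty acid synthesis list was not called (23 of 29, list median 0.23). In it 1 gene was called higher in T47D and 5 in MDA-MB-231, a share of 20.7% against 14.5% over all genes. FADS2, a desaturase of polyunsaturated fatty acids, had 23.2, 21.9 and 25.2 CPM in T47D, against 370.2, 365 and 352 CPM in MDA-MB-231 (log2 difference -3.95, SE 0.063), and malic enzyme, ME1, had 0.112, 0.356 and 0.301 CPM in T47D, against 48.8, 48 and 51 CPM in MDA-MB-231 (log2 difference -7.35, SE 0.385). FADS1 (-2.87) and ELOVL6 (-2.60) were called in the same direction, and SQLE, squalene epoxidase, in the opposite one (2.06). G0S2, the gene introduced into both lines, had 0.900, 0.277 and 0.376 CPM in T47D, against 25.5, 25 and 25.1 CPM in MDA-MB-231 (log2 difference -5.58, SE 0.45) without doxycycline. T47D library 1 stood above the other libraries of that line, at 40 reads against 14 and 15. The values are per gene and do not tell a line's own G0S2 from the introduced copy. The lipase that G0S2 inhibits, PNPLA2, was close in the lines (-0.20), the droplet coat gene PLIN2 was lower in T47D without being called (-0.98), and ACSL4, which activates arachidonic acid, had 7.56, 7.32 and 7.36 CPM in T47D, against 404, 404 and 425 CPM in MDA-MB-231 (log2 difference -5.78, SE 0.0281). In the list of lipolysis and lipid droplet genes 4 of 14 were called higher in MDA-MB-231 and 1 in T47D, HILPDA (2.73). The shares over all genes were 7.15% and 7.34%. Another 4 members were in the T47D table alone and 3 in the MDA-MB-231 table alone, so the list as a whole did not clearly favour a line.

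Detoxification enzymes held 1 gene of the T47D table alone and 8 of the MDA-MB-231 table alone among 27 listed, and steroid and cytochrome enzymes 5 and 2 among 16, against 12.8% and 10% of all listed genes. GSTP1, a glutathione transferase, had 80.6, 76.9 and 72.2 CPM in MDA-MB-231 and was not listed in T47D, while its relative GSTM3 had 636, 648 and 658 CPM in T47D, against 50.7, 48.9 and 48.6 CPM in MDA-MB-231 (log2 difference 3.71, SE 0.0236). AKR1B1 and AKR1C3, aldo-keto reductases, were listed in MDA-MB-231 alone at means of 206 and 64.2 CPM. HSD17B11, a steroid dehydrogenase of lipid droplets, had 0.157, 0.198 and 0.125 CPM in T47D, against 155, 156 and 162 CPM in MDA-MB-231 (log2 difference -9.46, SE 0.135), with 7, 10 and 5 reads in the T47D libraries. In the list of steroid and cytochrome enzymes 1 of 9 in both tables was called higher in T47D and 2 in MDA-MB-231, too few to set apart from 7.34% and 7.15% of all genes. The estrogen-activating enzyme HSD17B1 was listed in T47D alone, at a mean of 17.8 CPM. Of 18 glutathione and NRF2 genes in both tables, 2 were called higher in T47D, 2 in MDA-MB-231 and 14 in neither, a share near the 14.5% called over all genes, and the sign of their median (0.08) turned when differences were centred on the median of all genes.

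Growth machinery was close in the lines. None of 32 mitosis genes (list median -0.29) and none of 47 cytosolic ribosomal protein genes (0.33) was called, and of 36 DNA replication genes (0.16) only GINS2, a subunit of the replicative helicase, was, with 244, 243 and 252 CPM in T47D, against 33.1, 31.4 and 30.03 CPM in MDA-MB-231 (log2 difference 2.96, SE 0.0441). In the G1 control list CDK6 was the single call, with 5.74, 6.09 and 4.58 CPM in T47D, against 177, 182 and 188 CPM in MDA-MB-231 (log2 difference -5.05, SE 0.126), while its relative CDK4 was equal within 0.1 (0.04). CDKN2A, CDKN2B and their neighbour MTAP were listed in T47D alone, with 20.8, 21.5 and 20.9 CPM in T47D for CDKN2A and 65.5, 62.6 and 60.6 CPM in T47D for MTAP. RB1, the brake on entry into S phase, was within 2-fold (-0.37). The proliferation marker MKI67 was lower in T47D without being called (-1.05). Of genes often used as references ACTB (-0.14) and TBP (-0.32) were within 2-fold and GAPDH was lower in T47D (-1.52), short of 4-fold.

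**Figure D4:**
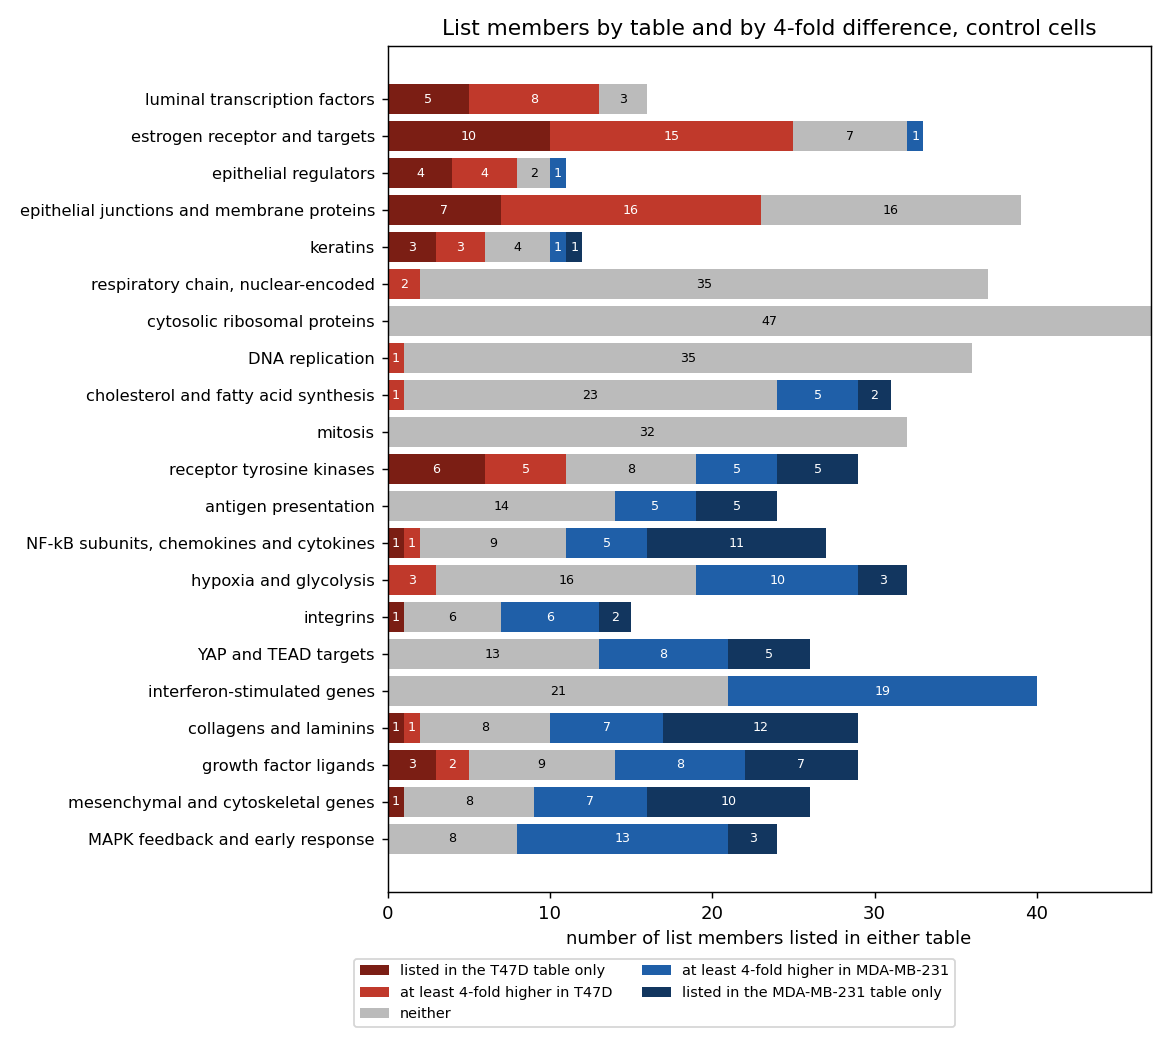
Number of members (horizontal axis) of 21 gene lists by where they were listed and called: T47D table alone (dark red), both tables and at least 4-fold higher in T47D (red), neither (grey), at least 4-fold higher in MDA-MB-231 (blue), MDA-MB-231 table alone (dark blue). The estrogen receptor list has 25 members in both reds and 1 in blue, the MAPK feedback list 16 in both blues and none in red, and all 47 ribosomal protein genes are grey.

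Beyond the lists, the genes with the largest differences among those of at least 10 CPM in the higher line added further cell surface, secreted and signalling genes. OLFML3, a secreted matrix glycoprotein gene, had 567, 577 and 582 CPM in T47D, against 0.465, 0.438 and 0.669 CPM in MDA-MB-231 (log2 difference 9.94, SE 0.17), and APOE, the lipoprotein gene, had 128, 127 and 135 CPM in T47D, against 0.186, 0.504 and 0.210 CPM in MDA-MB-231 (log2 difference 8.56, SE 0.371). PREX1, an activator of the GTPase RAC, had 266, 276 and 283 CPM in T47D, against 0.605, 0.658 and 0.631 CPM in MDA-MB-231 (log2 difference 8.62, SE 0.0405). All 3 were under 1 CPM in each MDA-MB-231 library. Towards MDA-MB-231, MAP1B, a microtubule-associated protein of neurons, had 0.945, 0.692 and 0.526 CPM in T47D, against 737, 787 and 803 CPM in MDA-MB-231 (log2 difference -9.98, SE 0.226), NRP1, a coreceptor for VEGF and semaphorins, had 0.900, 0.752 and 0.701 CPM in T47D, against 529, 535 and 535 CPM in MDA-MB-231 (log2 difference -9.30, SE 0.099). DKK1, a secreted WNT inhibitor, had 0.900, 0.396 and 0.626 CPM in T47D, against 406, 396 and 406 CPM in MDA-MB-231 (log2 difference -9.22, SE 0.308). EDIL3 (-9.10), the clock-related factor NPAS2 (-8.27) and TFPI, the inhibitor of tissue factor (-8.11), followed, so that F3 and the gene of its inhibitor were high in the same line. Of genes in the T47D table alone, MGP, an inhibitor of calcification, had the highest CPM (not corrected for gene length), with 2253, 2275 and 2283 CPM in T47D, and SERPINA6, which encodes corticosteroid-binding globulin, had 1118, 1150.3 and 1179 CPM in T47D. Among the MDA-MB-231 genes without a T47D entry, NT5E (CD73) had 842, 854 and 871 CPM in MDA-MB-231.

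Mucins and calcium-binding S100 proteins, secreted or membrane products used as tumour markers, divided the lines too. MUC1, the membrane mucin, had 702, 719 and 729 CPM in T47D, against 4.10, 4.47 and 4.42 CPM in MDA-MB-231 (log2 difference 7.35, SE 0.0421). Both mucin and secretory genes in both tables were called higher in T47D, 4 were listed in T47D alone and 2 in MDA-MB-231 alone. Among S100 and annexin genes 5 of 14 in both tables were called higher in MDA-MB-231 and none in T47D (list median -1.26). Of the 20 in either table, 4 were listed in T47D alone and 2 in MDA-MB-231 alone, against 12.8% and 10% of all listed genes. Both ANXA1 and S100A4 (-6.19) of this list stand in the mesenchymal list too.

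HOX genes, which record body position, were mostly on the T47D side. HOXC10 was listed in T47D alone, with 218, 220.0 and 218 CPM in T47D. In all 14 HOX genes were in the T47D table alone and 6 in the MDA-MB-231 table alone, and all 5 in both tables (HOXC5, HOXC6, HOXC8, HOXB3 and HOXB7) were called higher in T47D. HOXB7 lay at the threshold (2.01) and was no longer called under each of the other scalings, and with 1 CPM added 2 of the 5 were called, without HOXC5, HOXC8 and HOXB7. HOXB9, with 17.3, 17.6 and 17.7 CPM in MDA-MB-231, and the HOXD genes HOXD1, HOXD3 and HOXD4 were listed in MDA-MB-231 alone. The germline genes MAGEA3 and PRAME, silent in most adult tissue, were listed in T47D alone at means of 21.3 and 107 CPM, among 6 such genes listed there alone against 3 in MDA-MB-231 alone; reads of MAGEA3 cannot be told from those of near-identical copies.

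Markers of other cell types were counted as well, and of the 45 leukocyte, endothelial, fibroblast and adipocyte genes looked up, 23 were listed in at least 1 table. Of 15 leukocyte markers, 4 were listed in T47D, with summed levels of 1.63 to 2.10 CPM over the libraries, and 7 in MDA-MB-231, with 186 to 191 CPM. LAPTM5 (-8.12, mean 107 CPM in MDA-MB-231) and CD68 (-6.76, mean 72.5 CPM in MDA-MB-231), both lysosomal proteins, were called higher in MDA-MB-231. The pan-leukocyte gene PTPRC (CD45) was listed in MDA-MB-231 alone at 0.735 CPM, and the T cell genes CD3D and CD3E and the myeloid genes ITGAM and TYROBP had no entry in either table. Of 11 endothelial markers, 3 were listed in T47D, with summed levels of 4.87 to 5.66 CPM over the libraries, and 4 in MDA-MB-231, with 96.5 to 105 CPM. ESAM, an adhesion molecule, was called higher in MDA-MB-231 (-4.67, mean 84.5 CPM there), as was EGFL7 (-2.98), and KDR and PECAM1 were listed there alone at 7.36 and 2.60 CPM, while VWF and CDH5 were in neither table. Of 11 fibroblast markers, 2 were listed in T47D, with summed levels of 34.5 to 40.1 CPM over the libraries, and 5 in MDA-MB-231, with 60.8 to 62.4 CPM. FBN1 (fibrillin) and PDGFRB were listed in MDA-MB-231 alone at 45.4 and 6.80 CPM, COL1A1 had means of 18.4 CPM in T47D and 5.61 CPM in MDA-MB-231, and DCN, FAP and PDGFRA were in neither table. Of 8 adipocyte markers, 3 were listed in T47D, with summed levels of 2.35 to 2.67 CPM over the libraries, and 2 in MDA-MB-231, with 57.6 to 60.2 CPM. PPARG was called higher in MDA-MB-231 (-5.99, mean 56.9 CPM there), and LEP and PLIN1 were in neither table. A gene without an entry is of unknown level, and the part of other cells in the differences was not tested. Replication-dependent histones, which are sensitive to how RNA without a poly(A) tail was handled, had a list median of 1.32, with 1 of 9 called higher in T47D, 5 more listed in T47D alone and none in MDA-MB-231 alone; their part in other differences was not tested.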

How the data were processed

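The authors deposited 1 table a cell line with log2 CPM values per gene and library. The submitters' processing notes name STAR, featureCounts, limma and GRCh38.p13, without versions; how low genes were filtered, values scaled and strand used is not stated in them. Each deposited log2 value was turned back into whole reads (within 0.1) by removing 3 added reads scaled to library size; CPM printed here are these reads over the scaled library size, without added reads. Replicate libraries differed by more than sampling noise and were each counted once. The SE combines the SDs of 3 libraries a line.

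The tables were scaled separately, so no p-value was computed between lines; a gene was called at a difference of 4-fold or more in mean deposited log2 CPM without overlap of libraries. The calling step was tested on simulated data whose planted changes all lay well above 4-fold. The simulation held no scaling difference between tables, so it cannot speak to calls near 4-fold or to the separate scaling. Genes named are G0S2, the 15 largest differences each way among genes of 10 CPM or more, the 10 highest genes of each table alone, the leading members of 36 gene lists (up to 6 by difference and 3 of a single table), and a fixed panel; other genes in the text are list members added as examples after their values were seen, and some genes that the rule names are not reported here. The members and lists were chosen with earlier results of these data known. Alternatives were other folds, scalings, added reads, a filter on low genes, the induced libraries and leaving out each library. Promoters were matched by symbol (11964 of 16410 genes). Python 3.11.15, numpy 2.4.6, pandas 2.3.3 and matplotlib 3.10.9 were used.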

Additional observations from a re-analysis of the deposited data

How the results depend on the processing

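No call went the other way under any alternative run. The number of genes higher in T47D and in MDA-MB-231 was 2621 and 2046 at 2-fold, 379 and 480 at 8-fold, and 509 and 542 when both control means had to reach 1 log2 CPM, which by construction leaves fewer genes. It was 835 and 981 with differences centred on the median of all genes, 835 and 971 after quantile normalization, 912 and 918 with CPM over the genes in both tables and 673 and 743 with 1 CPM added. Leaving out 1 library at a time gave 924 to 942 genes higher in T47D and 900 to 914 higher in MDA-MB-231. Of the 930 and 906 genes, 858 and 852 were also called between the day 3 libraries of the lines, and 867 and 828 between the day 15 libraries. Of 151 called genes named by the rule, 3 (SQLE, HOXB7 and UQCRC2) were not called after centring, 10 with 1 CPM added and 28 at 8-fold. G0S2, the gene placed under doxycycline control, was not called at day 3 or day 15. The same held for PSMB9, RELB, TNFSF15 and IFI44, and IFIT3 was not called at day 3. HOXB7 was not called without T47D library 1 or without MDA-MB-231 library 1. No paired analysis was possible because the calls come from no test, and the labels tie no replicate of T47D to one of MDA-MB-231. Depth limits genes with few reads in 1 line, whose differences rest on the added reads, and the filters of the tables hide how low a gene of a single table was in the other line.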

Other observations

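Neighbouring genes that stood on the same side formed runs along chromosomes. Positions come from GENCODE 29 (GRCh38), which placed 89.5% of the listed symbols at 1 position, and a run counts consecutive listed genes that were called or listed alone for the same line. The longest run held 22 protocadherin genes on chromosome 5, from PCDHA1 to PCDHB9 (140786136 to 141191541), all on the T47D side and 15 of them in the T47D table alone. Protocadherins are adhesion proteins known from neurons. PCDHB5 had a mean of 46.1 CPM in T47D and 0.996 CPM in MDA-MB-231, and PCDHB2 had 44.1 CPM in T47D and 3.68 CPM in MDA-MB-231. The members in the T47D table alone ranged from 0.425 CPM (PCDHA6) to 29.8 CPM (PCDHA3). For the lowest of them, a missing MDA-MB-231 entry need not mark a difference. A further 12 genes, from PCDHGA6 to PCDHGC3 in the gamma cluster next to it, stood on the same side. Members of the family share sequence and exons, so single values are uncertain.

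The HOXC cluster on chromosome 12 (53935328 to 54122234) gave a run of 14 genes on the T47D side, 12 of them in the T47D table alone. On chromosome 9, 9 genes from FOCAD to ELAVL2 (20658309 to 23826337) stood on the T47D side and 8 of them were in the T47D table alone. FOCAD had a mean of 79.7 CPM in T47D and 2.19 CPM in MDA-MB-231, and KLHL9 had 110.2 CPM in T47D without an entry in MDA-MB-231. CDKN2A, CDKN2B and MTAP lie within this run. A run of 7 genes on chromosome 15 from MKRN3 to SNORD116-21 (23565674 to 25419462), the imprinted Prader-Willi region, was also on the T47D side. It was picked for its region and not by length. In it SNHG14 had 62.2 CPM and SNRPN 0.569 CPM, both in the T47D table alone. Longer T47D-side runs not described further were STXBP6 to LINC02326 and ZNF208 to ZNF730, of 9 genes each. CD69 to TMEM52B and SKAP1 to HOXB7 held 8 each. The longest run on the MDA-MB-231 side held 8 genes on chromosome 3 from CLDND1 to COL8A1 (98497912 to 99799226), of which DCBLD2 had 90.3 CPM in T47D and 709 CPM in MDA-MB-231.

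Whole chromosomes differed less. Chromosome 16 had the highest median difference, 0.87 on the log2 scale over 519 genes, with 62 genes called higher in T47D and 16 higher in MDA-MB-231. Chromosome 4 had the lowest, -0.43 over 438 genes, with 15 genes called higher in T47D and 47 higher in MDA-MB-231. Copy number in the lines was not analysed here.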
